A study of Homo sapiens with 6 samples.

Results

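Cadherins are calcium-dependent adhesion receptors that hold neighbouring cells together, and their expression was followed here in LX-2 cells depleted of the metalloprotease ADAMTS12. LX-2 is an immortalised line of human hepatic stellate cells, which lay down scar matrix in the injured liver. The family was taken as every gene of the deposited table whose symbol is CDH and a number or begins with PCDH. Symbols ending in P or in P and digits, a form used for pseudogenes, were left out, which gave 94 of 60669 genes. They comprised 23 cadherins, 13 protocadherins that lie outside the gene clusters, 16 alpha, 16 beta and 22 gamma protocadherins of the clusters on chromosome 5, and 4 antisense RNAs of PCDH9. In ADAMTS12-depleted cells, cadherins and protocadherins outside the clusters fell or did not pass the test, whereas clustered beta and gamma protocadherins rose or did not pass it.

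The siADAMTS12 libraries came from LX-2 cells 48 h after lipid transfection with 1 small interfering RNA (siRNA) sequence against ADAMTS12, and the siCTL libraries from LX-2 cells 48 h after transfection with a commercial negative control siRNA. All cells were labelled wild type and grew in medium with fetal calf serum. Each group held 3 libraries of poly(A)-selected RNA. Nothing in the labels says that the 3 came from separate cultures, so the p-values measure only the spread between these libraries, which may be technical.

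Classical cadherins of types I and II bind a partner on the next cell through their outer repeats and bind p120 and beta-catenin inside the cell, which link them through alpha-catenin to actin. Protocadherins share the outer repeats but lack the catenin-binding tail, and several of them signal through kinases or through the actin-regulating WAVE complex. Clustered protocadherins are known best from neurons, where each cell uses a few of many alternative promoters so that its surface carries its own combination of isoforms. Each alpha and gamma variable exon has its own promoter and is spliced to constant exons common to its cluster, while each beta gene is a single coding exon. In activated stellate cells, CDH2 (N-cadherin) and CDH11 (OB-cadherin) are the adhesion cadherins usually described, and CDH1 (E-cadherin) marks epithelium.

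The values are the authors' normalized counts, which summed to 30.7 to 31.4 M (mega, normalized counts) per siADAMTS12 library and to 33.6 to 34.1 M per siCTL library. Replicates within a group correlated at 0.9913 to 0.9936 across genes and libraries of different groups at 0.9846 to 0.988, and no library stood apart. ADAMTS12 itself (ENSG00000151388) had 4083, 3449 and 3687 normalized counts in siADAMTS12 libraries, against 13709, 12235 and 13423 in siCTL libraries. That is 28.5% of the siCTL level (log2 fold change -1.81 ± 0.07 (SE), limma adjusted p = 4.81e-08), and the groups lay far apart. An exact 2-sided permutation test of these values gave p = 0.1, the smallest that 3 against 3 libraries can give. Stellate and fibroblast markers were present, with VIM, COL1A1 and PDGFRB among the 10 of 12 that had a mean of at least 10, but LRAT, the retinoid-storing enzyme of stellate cells, was at 0 in all 6 libraries.

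Of the 94 members, 49 had a mean of at least 10 normalized counts over the 6 libraries and were tested, 26 were detected below that mean, and 19 were listed at 0 in every library. Of the 49 tested, 15 rose, 8 fell and 26 did not pass limma's test at an adjusted p of 0.05 over all 15637 genes tested. Across all those genes 27.0% were called, 11.5% as higher and 15.5% as lower in siADAMTS12 cells. Rises were thus 42.6% of all calls, and 71.4% of them after all columns were rescaled to one sum, where 22 members rose and 4 fell. All 15 rises were among the 37 tested clustered protocadherins, of which 0 fell. All 8 falls were among the 12 tested cadherins and protocadherins outside the clusters, of which 0 rose. The median log2 fold change was 0.50 over the clustered genes and -0.31 over the others, against 0.005 over all genes tested. The siADAMTS12 values lay entirely above the siCTL values in 21 members and entirely below them in 8, against 19.2% and 21.7% of all genes tested. In bulk RNA, fewer cells of a type and less RNA per cell cannot be told apart.

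**Figure D1:**
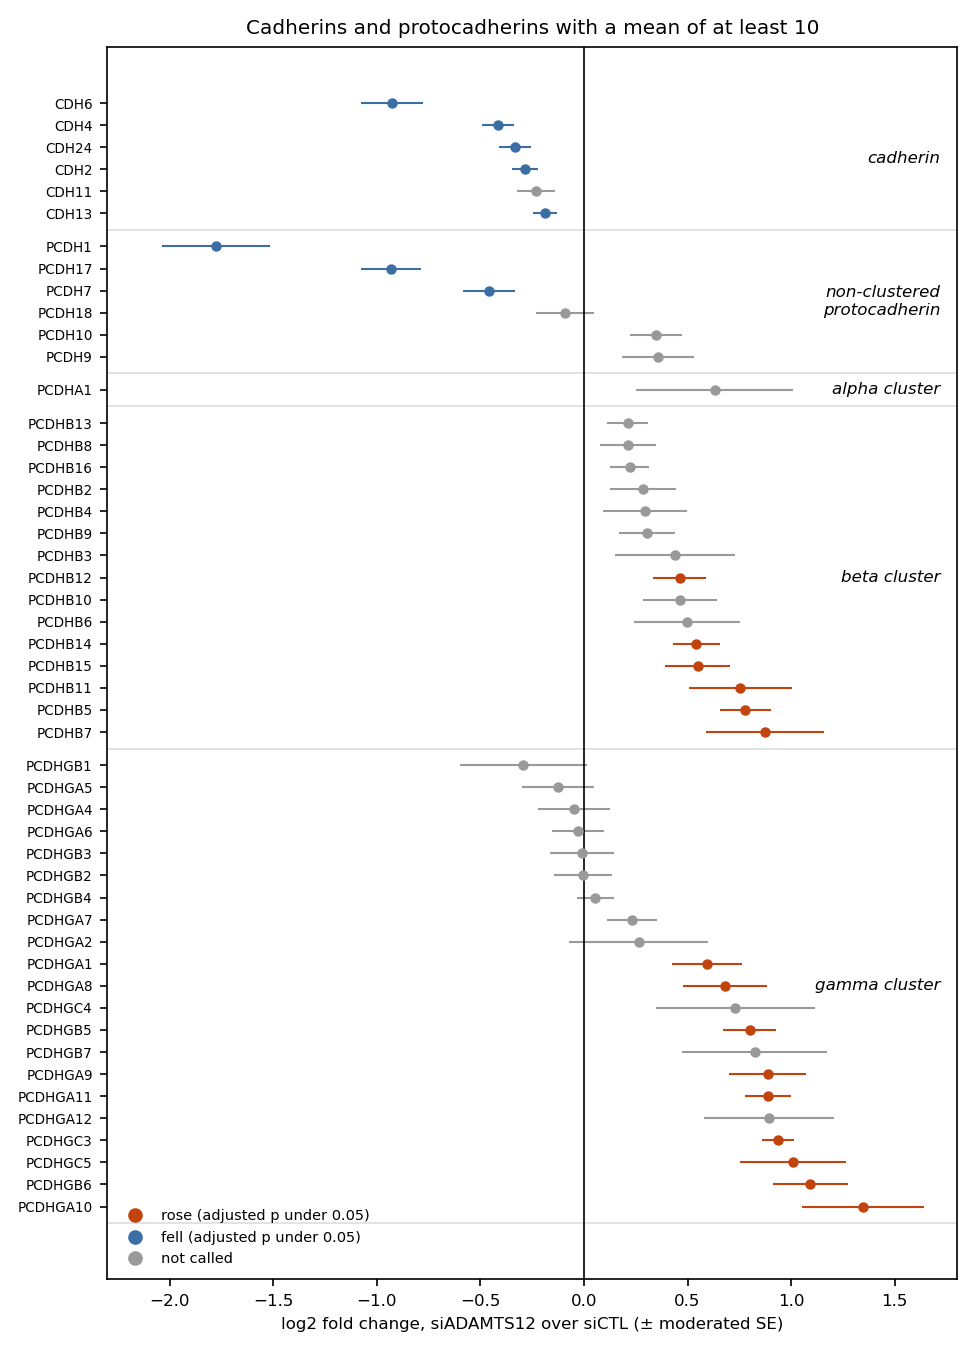
Log2 fold change (siADAMTS12 over siCTL) of each tested cadherin and protocadherin, grouped by subfamily, with bars of 1 moderated SE. Points are coloured for genes past an adjusted p of 0.05 and grey for genes not called. Called points lie left of 0 for cadherins and protocadherins outside the clusters (8 genes) and right of 0 for the beta and gamma clusters (15 genes).

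The RNA of the family was dominated by a few genes. Per kilobase of exon that the annotation gives to that gene alone, CDH2 ranked 1 at 1480 normalized counts in siADAMTS12 and 1801 in siCTL cells (group means), and CDH13 ranked 2 at 564 in siADAMTS12 and 643 in siCTL cells. Below these, the order differed between the groups. PCDHGC3 ranked 3 in siADAMTS12 cells at 352 normalized counts per kilobase, against 6 in siCTL cells at 184. Over all its exon bases, those common to the gamma genes included, PCDHGC3 had 211 per kilobase in siADAMTS12 and 110 in siCTL cells, which puts it below PCDHB5, CDH4 and CDH24 in siADAMTS12 cells. PCDHB5 ranked 4 in siADAMTS12 cells at 248, against 8 in siCTL cells at 145. CDH4 ranked 5 in siADAMTS12 cells at 222, against 3 in siCTL cells at 296, and CDH24 ranked 6 at 215 in siADAMTS12 cells, against 4 at 271 in siCTL cells. Clustered protocadherins together made up 28.1 ± 0.970% of the summed normalized counts of all members in siADAMTS12 libraries, against 19.0 ± 0.983% in siCTL libraries (SD, n = 3 each). This share is formed within each library and does not depend on how the columns were scaled.

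**Figure D2:**
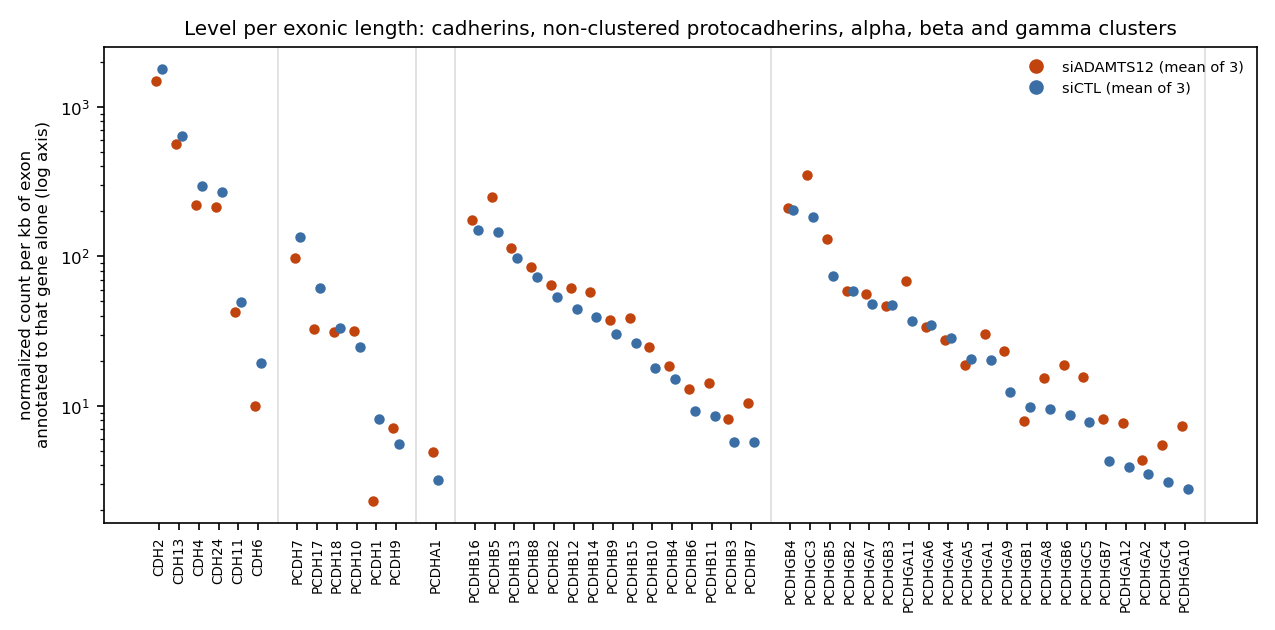
Mean level per kilobase of exon annotated to that gene alone (normalized counts, log axis), siADAMTS12 beside siCTL, for the tested members. CDH2 and CDH13 lead in both groups, PCDHGC3 and PCDHB5 sit higher in siADAMTS12 cells, and CDH4 and CDH24 sit higher in siCTL cells.

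Among the cadherins, 5 of the 6 tested fell and CDH11 did not pass, against falls in 15.5% of all genes tested. CDH2, the N-cadherin of mesenchymal cells and neurons (chromosome 18, 27950966 to 28177446, minus strand, GRCh38), had 7420, 7717 and 6847 normalized counts in siADAMTS12 libraries, against 9090, 8773 and 8874 in siCTL libraries. Every siADAMTS12 library lay below every siCTL library (7328 ± 442 against 8912 ± 162, SD, n = 3 each; log2 fold change -0.28 ± 0.06, limma adjusted p = 0.00565). CDH13, the T-cadherin, which is held by a lipid anchor without a cytoplasmic tail and binds adiponectin, had 6295, 6114 and 6517 in siADAMTS12 libraries, against 7101, 7081 and 7382 in siCTL libraries. This was the smallest of the called changes (log2 fold change -0.19 ± 0.06, limma adjusted p = 0.0288). CDH4, the R-cadherin, a type I cadherin like CDH2, had 1606, 1503 and 1791 in siADAMTS12 libraries, against 2042, 2250 and 2229 in siCTL libraries (log2 fold change -0.41 ± 0.08, limma adjusted p = 0.00206). The groups did not overlap in CDH13 or CDH4.

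Of the type II cadherins, 2 of 3 fell, against 15.5% of all genes tested. CDH24, which binds catenins, had 842, 790 and 788 normalized counts in siADAMTS12 libraries, against 1045, 1073 and 932 in siCTL libraries (log2 fold change -0.33 ± 0.08, limma adjusted p = 0.00809). CDH6, the K-cadherin of developing kidney (chromosome 5, 31193750 to 31329146, plus strand), had 100, 119 and 121 in siADAMTS12 libraries, against 183, 214 and 255 in siCTL libraries. It showed the strongest fall of the cadherins, 1.90-fold, with no overlap between the groups (113 ± 11.6 against 217 ± 36.1, SD, n = 3 each; log2 fold change -0.93 ± 0.15, limma adjusted p = 0.000813). CDH11, the OB-cadherin of fibroblasts and osteoblasts, had 528, 606 and 533 in siADAMTS12 libraries, against 589, 704 and 667 in siCTL libraries. These values overlapped, and the log2 fold change of -0.23 ± 0.09 did not pass (limma adjusted p = 0.089). With the replicate number as a block its adjusted p was 0.0297 in limma, and it was 0.0473 without siCTL replicate 1 and 0.0467 without siADAMTS12 replicate 2. CDH2 supplied 43.7 ± 2.29% of the summed cadherin counts in siADAMTS12 and 44.1 ± 0.976% in siCTL libraries (SD, n = 3 each), a difference within the spread between replicates.

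The calls on the abundant cadherins were sensitive to scaling. When all columns were rescaled to one sum, which raises the median log2 fold change of all genes by 0.124, CDH6 and CDH4 kept their calls, while CDH2 had a limma adjusted p of 0.0549, CDH24 of 0.0653 and CDH13 of 0.405. Under quantile normalization CDH2 had an adjusted p of 0.165 and CDH13 of 0.547 in limma, with log2 fold changes of -0.12 and -0.05. The limma call on CDH13 was also lost without siADAMTS12 replicate 1 (adjusted p = 0.0744) or 2 (0.0722) and without siCTL replicate 1 (0.0601), 2 (0.0537) or 3 (0.0997). The summed stellate and fibroblast markers moved in the same direction, at 280754 to 303620 normalized counts in siADAMTS12 libraries and 369715 to 410901 in siCTL libraries, with VIM, PDGFRB, TAGLN and LUM called lower among the 10 tested and none called higher. Their part in the cadherin result was not tested.

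CDH1 was close to absent, at 0, 1 and 2 normalized counts in siADAMTS12 libraries and 0, 0 and 1 in siCTL libraries. CDH3, the P-cadherin of basal epithelium, had 0, 4 and 4 in siADAMTS12 libraries and 3, 1 and 2 in siCTL libraries. CDH5, the endothelial VE-cadherin, had 8, 11 and 3 in siADAMTS12 libraries and 9, 12 and 10 in siCTL libraries. It lay, with CDH15, the muscle cadherin, just outside the threshold at a mean of 8.83, followed by CDH26 at 7, while PCDHA1 at 11, PCDHGC4 at 12 and PCDHGA12 at 15.3 lay just inside it. CDH8, CDH10, CDH17, CDH18 and CDH23 were detected at means of at most 2.50, and CDH7, CDH9, CDH12, CDH16, CDH19, CDH20 and CDH22 were listed at 0 in all 6 libraries. Among markers of other cell types, the epithelial keratins KRT8 and KRT18 were abundant and not called, and the epithelial list summed to 15195 to 17872 in siADAMTS12 and 15673 to 17322 in siCTL libraries. EPCAM, a defining epithelial marker, had 0, 7 and 0 in siADAMTS12 and 0, 2 and 1 in siCTL libraries. The endothelial list summed to 956 to 1129 in siADAMTS12 and 1029 to 1277 in siCTL libraries. Of it, KDR fell (log2 fold change -1.09, limma adjusted p = 0.00028), and PECAM1 had 3, 2 and 5 in siADAMTS12 and 1, 5 and 7 in siCTL libraries. EGFL7 supplied most of the endothelial sum, with a mean of 843 in siADAMTS12 and 845 in siCTL libraries. TEK had a mean of 132 in siADAMTS12 and 151 in siCTL libraries. EGFL7, TEK and VWF, the other 3 endothelial markers tested, were not called. Hepatocyte markers summed to 22 to 27 in siADAMTS12 and 17 to 19 in siCTL libraries over 6 genes, with APOB, TTR and FGB at 0. Leukocyte markers summed to 108 to 130 in siADAMTS12 and 104 to 126 in siCTL libraries, with CD3E at 0. CD14 supplied most of the leukocyte sum (means of 108 in siADAMTS12 and 102 in siCTL libraries) and was not called. Neuron or glia markers summed to 245 to 349 in siADAMTS12 and 276 to 342 in siCTL libraries. Most of that was SYT1, which was not called, and SOX10 was at 0.

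**Figure D3:**
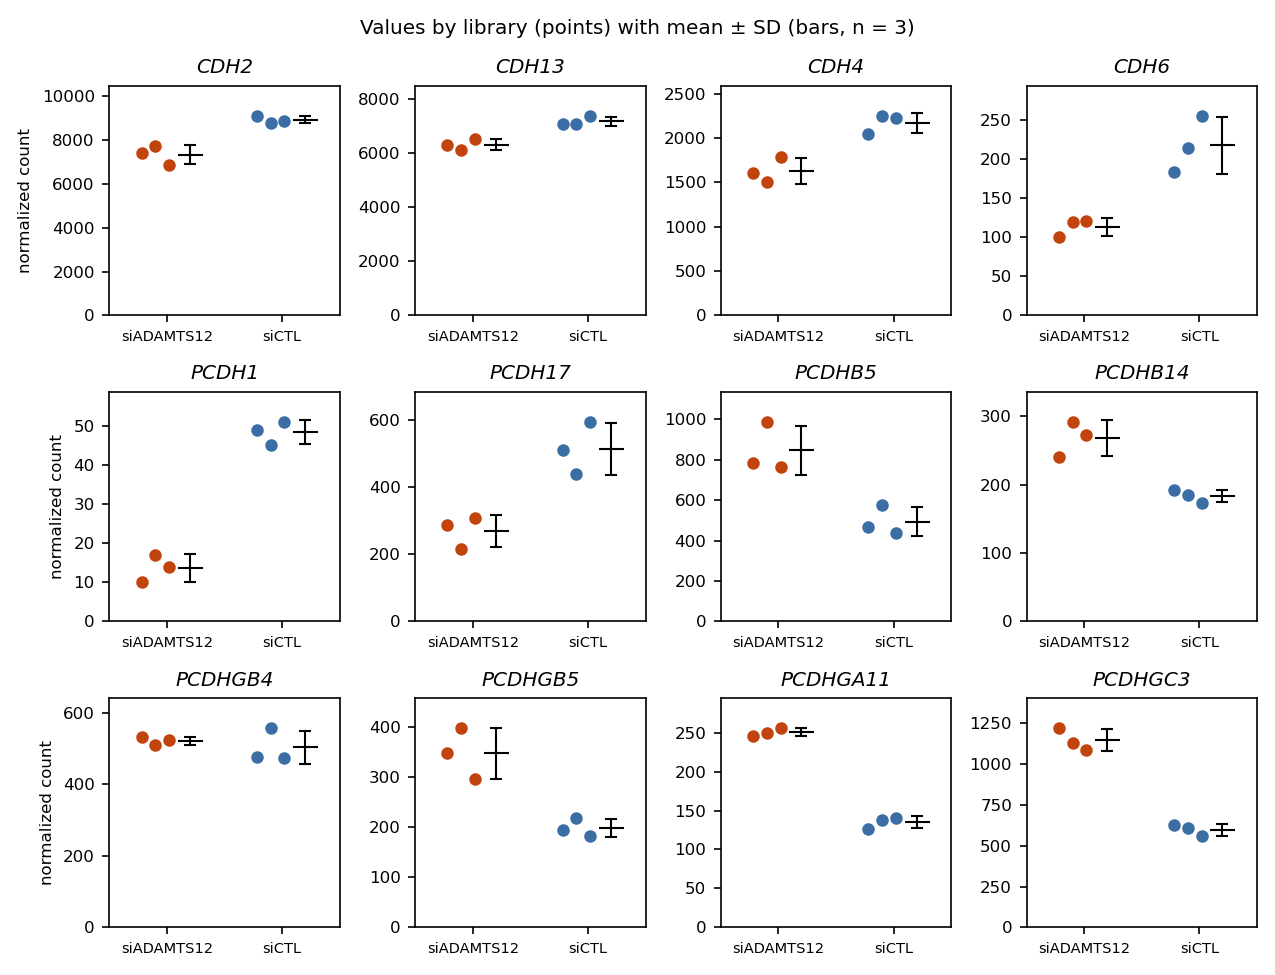
Normalized counts in each library (points) with the group mean (bar) for members that carry the comparison, siADAMTS12 left of siCTL in each panel, each panel with its own axis from 0. The 3 siADAMTS12 points lie below the siCTL points for the called cadherins and protocadherins outside the clusters, and above them for the called clustered genes.

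Of the 13 protocadherins outside the clusters, 6 were tested, and 3 of these fell, against 15.5% of all genes tested. PCDH1, an adhesion protein of airway epithelium (chromosome 5, 141853111 to 141879246, minus strand), had 10, 17 and 14 normalized counts in siADAMTS12 libraries, against 49, 45 and 51 in siCTL libraries. This 3.43-fold fall was the largest log2 fold change of any tested member (-1.78 ± 0.26, limma adjusted p = 0.000438), in a gene of low counts. PCDH17, which recruits the WAVE complex in mouse axons (chromosome 13, 57631810 to 57729311, plus strand), had 287, 217 and 308 in siADAMTS12 libraries, against 511, 439 and 595 in siCTL libraries. It fell 1.91-fold without overlap (271 ± 47.7 against 515 ± 78.1, SD, n = 3 each; log2 fold change -0.93 ± 0.15, limma adjusted p = 0.000672). PCDH7, whose tail binds protein phosphatase 1, was the most abundant of them, with 1038, 1417 and 1122 in siADAMTS12 libraries, against 1497, 1938 and 1483 in siCTL libraries. The groups lay just apart (log2 fold change -0.46 ± 0.13, limma adjusted p = 0.0185), and replicate 2 was the highest in both. Its adjusted p in limma was 0.0593 without siADAMTS12 replicate 1, 0.0661 without siADAMTS12 replicate 3, 0.0742 without siCTL replicate 2 and 0.0598 after rescaling to one sum.

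The other three tested protocadherins outside the clusters did not pass. PCDH10, also a partner of the WAVE complex, had 316, 372 and 274 in siADAMTS12 libraries, against 233, 269 and 249 in siCTL libraries, so that the groups did not overlap (log2 fold change 0.35 ± 0.12, limma adjusted p = 0.0587). Its adjusted p in limma was 0.0233 with the replicate block, 0.0124 after rescaling to one sum and 0.0302 without siADAMTS12 replicate 3. PCDH9 had 258, 191 and 210 in siADAMTS12 libraries, against 210, 132 and 177 in siCTL libraries (log2 fold change 0.36 ± 0.17, limma adjusted p = 0.154), with an adjusted p of 0.029 under the block. PCDH18, which binds the adaptor Dab1 in mouse, had 187, 242 and 196 in siADAMTS12 libraries, against 202, 260 and 204 in siCTL libraries (log2 fold change -0.09 ± 0.14, limma adjusted p = 0.684). PCDH12, an endothelial protocadherin, and PCDH19 were detected below the threshold. Listed at 0 were 5 protocadherins outside the clusters, PCDH8, PCDH11X, PCDH15 and PCDH20 among them, and the 4 antisense RNAs of PCDH9. Of the 4778 exon bases of PCDH20, only 201 are annotated to it alone, so its 0 may depend on how shared bases were counted.

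The siRNA used here has the sequences below, given because 3′ ends of several members hold its seed match. The guide strand is complementary to the target, and its bases 2 to 8, in capitals, are the seed that pairs in microRNA-like silencing.
sense strand: gccaaaguuuggagggaaa
guide strand: uUUCCCUCcaaacuuuggc
The full sense sequence lies in ADAMTS12 at chr5:33637728-33637746 (GRCh38, minus strand), in the coding part of exon 12 of both transcripts that hold it. The match to guide bases 2 to 8 reads GAGGGAA on the mRNA. Searched on the mRNA strand of 1 GENCODE transcript per gene, it occurred in the 3′ UTR of 15.6% of 12610 tested coding genes and of 5 of the 49 tested members. Among all those coding genes, it was held by 30.7% of the 2303 that fell, 12.5% of the 8707 that were not called and 10.9% of the 1600 that rose. Among the members, it was held by 4 of the 8 that fell, CDH2, CDH6, CDH24 and PCDH17, by 1 of the 26 not called, CDH11, and by 0 of the 15 that rose.

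The 6 sites in tested members follow, each 22 bases of the mRNA strand from GRCh38 with the match in capitals. They are printed to show the letters around it, which differ from gene to gene.
CDH6 (chr5:31324027-31324048, plus strand): catataaaggggGAGGGAAata
CDH6 (chr5:31326465-31326486, plus strand): agaaccacaagaGAGGGAAtgt
PCDH17 (chr13:57727504-57727525, plus strand): aaactgctttgaGAGGGAAgag
CDH2 (chr18:27951993-27952014, minus strand): aatttgggctcaGAGGGAAtat
CDH24 (chr14:23047293-23047314, minus strand): ctccagctgagaGAGGGAAcca
CDH11 (chr16:64946405-64946426, minus strand): agatgaatccatGAGGGAAtgg
The tested genes with a site had log2 fold changes of -0.93 (CDH6, 2 sites), -0.93 (PCDH17), -0.33 (CDH24), -0.28 (CDH2) and -0.23 (CDH11). Their searched 3′ UTRs had 5838 bases in CDH6, 4017 in PCDH17, 832 in CDH24, 1187 in CDH2 and 3850 in CDH11. Those of the tested beta genes had 89 to 2459 bases. The counts of matches were not adjusted for this length, and a part of the match in the changes was not tested. PCDH1, which had the lowest of all members, and CDH13, CDH4 and PCDH7, which also fell, held no 7-base match in the 3′ UTR searched. None of the 15 tested beta or 21 tested gamma genes held it either, and 21 of the 22 gamma genes share one 3′ UTR of 1806 bases, so they count as 1 sequence. The shorter match to guide bases 2 to 7 was in PCDH1, CDH4 and PCDH7, but not in CDH13. Members holding this 6-base match were 7 of the 8 that fell, 16 of the 26 not called and 9 of the 15 that rose. The share over all tested coding genes was 41.3%. All 21 tested gamma genes held the 6-base match, and 0 of the 15 tested beta genes did. A match is a stretch of letters, and binding there was not measured.

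In the beta cluster, 15 of the 16 genes were tested and all 15 had a log2 fold change above 0, with a median of 0.46. Of these, 6 passed the test (PCDHB5, PCDHB14, PCDHB12, PCDHB15, PCDHB7 and PCDHB11), 9 did not, and PCDHB1 was listed at 0. The siADAMTS12 values lay entirely above the siCTL values in 9 of the 15. Over all genes tested, 19.2% had such values and 11.5% were called higher. The summed normalized counts of the cluster were 3572, 4292 and 3601 in siADAMTS12 libraries, against 2750, 3167 and 2708 in siCTL libraries. Every siADAMTS12 sum lay above every siCTL sum (3822 ± 408 against 2875 ± 254, SD, n = 3 each, a ratio of 1.33), and replicate 2 was the highest in both groups.

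PCDHB5 (ENSG00000113209, chromosome 5, 141135218 to 141138625, plus strand) had the smallest adjusted p of the cluster, with 784, 987 and 766 normalized counts in siADAMTS12 libraries, against 466, 574 and 438 in siCTL libraries. It rose without overlap between the groups (846 ± 123 against 493 ± 71.8, SD, n = 3 each; log2 fold change 0.78 ± 0.12, limma adjusted p = 0.00068). PCDHB14 had 240, 292 and 273 in siADAMTS12 libraries, against 192, 185 and 174 in siCTL libraries (log2 fold change 0.54 ± 0.11, limma adjusted p = 0.0045). Both genes kept their calls under each of the 13 alternatives tried. PCDHB12 had 225, 262 and 222 in siADAMTS12 libraries, against 151, 172 and 192 in siCTL libraries, and PCDHB15 had 151, 122 and 147 in siADAMTS12 libraries, against 83, 112 and 92 in siCTL libraries. Neither gene's groups overlapped, with log2 fold changes of 0.46 ± 0.13 (limma adjusted p = 0.0192) for PCDHB12 and 0.55 ± 0.16 (limma adjusted p = 0.0233) for PCDHB15. The low genes PCDHB7, at 45, 33 and 40 in siADAMTS12 and 20, 30 and 15 in siCTL libraries, and PCDHB11, at 51, 70 and 59 in siADAMTS12 and 36, 47 and 25 in siCTL libraries, passed narrowly (log2 fold changes 0.87 ± 0.28 and 0.75 ± 0.25, limma adjusted p = 0.041 and 0.0439).

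PCDHB16, at 176 normalized counts per kilobase of unshared exon in siADAMTS12 and 151 in siCTL cells, had 741, 910 and 764 normalized counts in siADAMTS12 libraries, against 652, 753 and 664 in siCTL libraries. These ranges overlapped and its log2 fold change of 0.22 did not pass (limma adjusted p = 0.114). The 8 other beta genes that did not pass, PCDHB2, PCDHB3, PCDHB4, PCDHB6, PCDHB8, PCDHB9, PCDHB10 and PCDHB13, had log2 fold changes of 0.21 to 0.50. With the replicate block, PCDHB16, PCDHB2 and PCDHB10 also passed in limma (adjusted p = 0.0247, 0.0471 and 0.0426). The count of 6 rises depended on single libraries. It was 2 without siCTL replicate 1, 3 without siCTL replicate 3 and 3 without siADAMTS12 replicate 3, and it was 10 after rescaling to one sum. Without siCTL replicate 1 the limma adjusted p was 0.0729 for PCDHB12, 0.0826 for PCDHB15, 0.0901 for PCDHB7 and 0.0793 for PCDHB11. PCDHB12 was also lost without siADAMTS12 replicate 2 (limma adjusted p = 0.0625), PCDHB15 without siADAMTS12 replicate 1 (0.077) or 3 (0.0846) or siCTL replicate 3 (0.0685), and PCDHB7 without siADAMTS12 replicate 1 (0.121) or 3 (0.11) or siCTL replicate 3 (0.135). PCDHB11 was lost without siADAMTS12 replicate 2 (limma adjusted p = 0.121) or 3 (0.104) or siCTL replicate 3 (0.147). Antisense genes overlap exons of 9 of the 15 tested beta genes, PCDHB5 included, and the strand setting of the counting is not given in the sources used here.

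Beta promoters share a stretch of sequence. In RefSeq promoters (GRCh38.p14, 250 bases before to 50 after the gene's start), the 9-mer GGTGGCGCT or its reverse complement AGCGCCACC was held by 13 of the 14 beta promoters in the table. It was chosen as the most frequent 9-mer of the 47 clustered promoters, held by 13 of them with the next best in 12, so its frequency among them is a description. Of all 27305 promoters, 0.524% held it, and it was in 0 of 13 alpha, 0 of 20 gamma, 0 of 12 cadherin and 0 of 11 other protocadherin promoters. The silent PCDHB1 was the only beta promoter of the table without it. Sites of 5 beta genes that rose are shown first, then those of 3 that did not pass, each as 29 bases of the plus strand with the 9-mer in capitals.
PCDHB5 (chr5:141135180-141135208): taggacgcctGGTGGCGCTgcaggctaag
PCDHB7 (chr5:141172567-141172595): caaaacgcaaGGTGGCGCTgctggctaaa
PCDHB12 (chr5:141208644-141208672): ggagacgcgtGGTGGCGCTgcaggataat
PCDHB14 (chr5:141223264-141223292): ggagacacatGGTGGCGCTacaggataag
PCDHB15 (chr5:141245315-141245343): gacaacgcatGGTGGCGCTgcaggctaag
PCDHB9 (chr5:141187075-141187103): gaagccacaaGGTGGCGCTgcagactgaa
PCDHB13 (chr5:141213866-141213894): gaggacgcgtGGTGGCGCTgcaggataag
PCDHB16 (chr5:141182311-141182339): gagaacgcgtGGTGGCGCTgcaggttaag
Every tested beta gene with a promoter in the table holds the 9-mer, so it could not separate those that rose from those that did not pass. PCDHB11, which rose, and PCDHB6, which did not pass, had no promoter there. Its absence from gamma promoters says only that these letters are not in those windows.

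In the gamma cluster, 21 of the 22 genes were tested, 9 rose, 0 fell and 12 did not pass. Over all genes tested, 11.5% were called higher and 15.5% lower. The summed normalized counts were 3608, 3643 and 3456 in siADAMTS12 libraries, against 2511, 2633 and 2401 in siCTL libraries, with no overlap (3569 ± 99.4 against 2515 ± 116, SD, n = 3 each, a ratio of 1.42). PCDHGC3, a C-type gene near the 3′ end of the cluster (ENSG00000240184, chromosome 5, 141475947 to 141512979, plus strand), carried the largest part. It had 1220, 1128 and 1086 in siADAMTS12 libraries, against 627, 610 and 557 in siCTL libraries. This 1.91-fold rise had the smallest adjusted p of all members (1145 ± 68.5 against 598 ± 36.5, SD, n = 3 each; log2 fold change 0.94 ± 0.08, limma adjusted p = 7.14e-06). PCDHGC3 made up 32.1 ± 1.53% of the gamma sum in siADAMTS12 libraries, against 23.8 ± 1.03% in siCTL libraries (SD, n = 3 each).

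Of the 9 gamma genes that rose, 8 lay on the 3′ side of the cluster. From PCDHGA8 to PCDHGC5, the 11 genes at the 3′ side, all 11 were tested, 8 rose and 3 did not pass, and their log2 fold changes ran from 0.68 to 1.35 with a median of 0.89. From PCDHGA1 to PCDHGB4, the 11 genes at the 5′ side, 10 were tested, 1 rose and 9 did not pass, and their log2 fold changes ran from -0.29 to 0.59 with a median of -0.007. The boundary was placed after these values were seen, so the contrast is a description and carries no test. The genes on either side of it, PCDHGB4 and PCDHGA8, have the smallest parts of exon annotated to one gene alone among the tested gamma genes. These parts are 35.61% for PCDHGB4 and 48.65% for PCDHGA8. How reads in their shared exons were assigned is not given, so the step between these neighbours is uncertain. The summed counts of PCDHGA8 to PCDHGC5 were 2171, 2098 and 1997 in siADAMTS12 libraries, against 1147, 1134 and 1045 in siCTL libraries, a ratio of 1.88. Those of PCDHGA1 to PCDHGB4 were 1437, 1545 and 1459 in siADAMTS12 libraries, against 1364, 1499 and 1356 in siCTL libraries, a ratio of 1.05 with overlapping values. As a share of the gamma sum, which no scaling of the columns alters, PCDHGA8 to PCDHGC5 made up 60.17, 57.59 and 57.78% in siADAMTS12 libraries, against 45.68, 43.07 and 43.52% in siCTL libraries. Over the 21 tested genes the rank of a gene along the cluster correlated with its log2 fold change at a Pearson r of 0.744 and a Spearman rho of 0.783, against 0.0616 and 0.143 over 15 beta genes. These points share libraries, and gamma genes share exons.

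**Figure D4:**
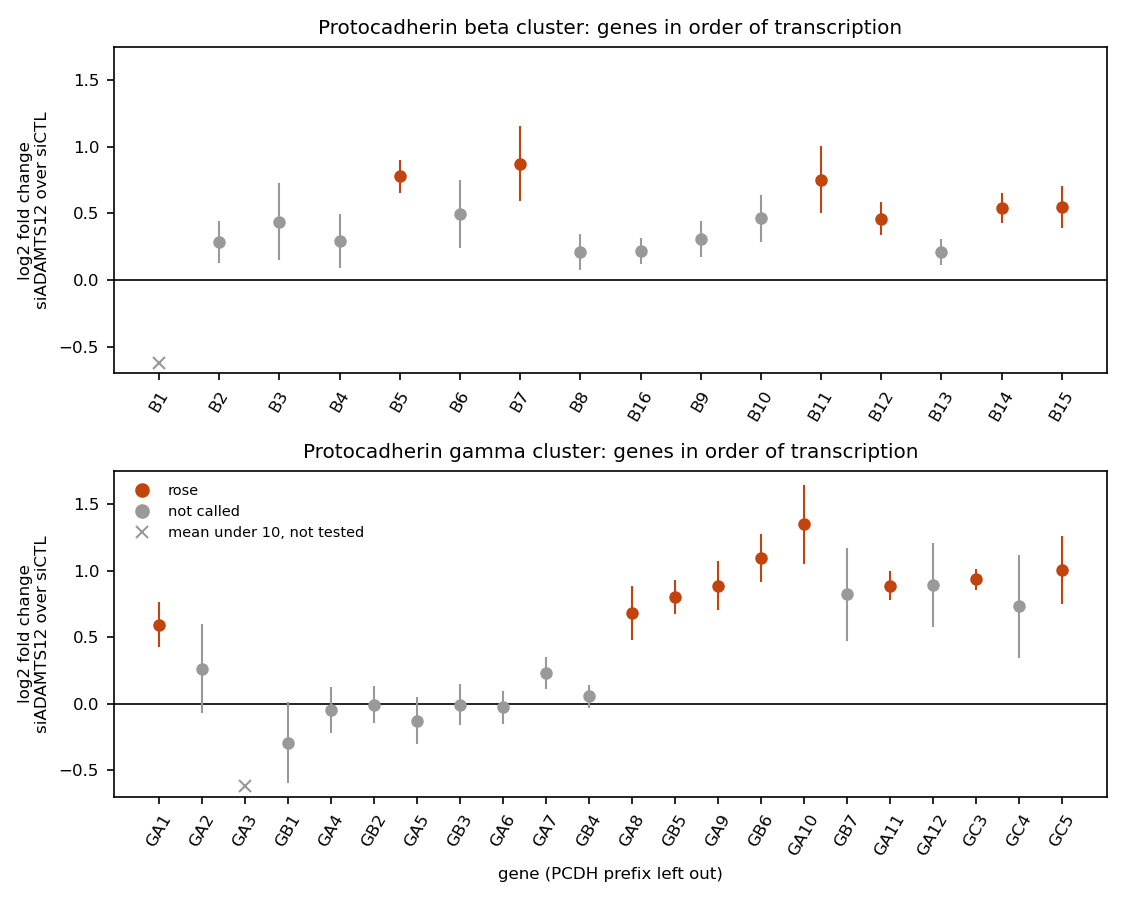
Log2 fold change (siADAMTS12 over siCTL, bars of 1 moderated SE) of the beta and gamma genes in their order along chromosome 5. Points are coloured where the adjusted p was under 0.05 and grey where it was not, and a cross marks a gene not tested. Gamma genes from PCDHGA8 onward lie at 0.68 to 1.35 and those before it at -0.29 to 0.59, while beta genes lie at 0.21 to 0.87 with a Pearson r of 0.0616 between position and log2 fold change.

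Within the 3′ side, the rises covered genes of the A, B and C types. PCDHGA11 had 246, 249 and 256 normalized counts in siADAMTS12 libraries, against 126, 138 and 141 in siCTL libraries (250 ± 5.13 against 135 ± 7.94, SD, n = 3 each; log2 fold change 0.89 ± 0.11, limma adjusted p = 0.00013). PCDHGB5 had 347, 398 and 297 in siADAMTS12 libraries, against 195, 218 and 182 in siCTL libraries (log2 fold change 0.80 ± 0.13, limma adjusted p = 0.000749). PCDHGB6 had 97, 75 and 88 in siADAMTS12 libraries, against 44, 37 and 39 in siCTL libraries (log2 fold change 1.09 ± 0.18, limma adjusted p = 0.000983). In each of these genes the lowest siADAMTS12 library lay above the highest siCTL library. PCDHGA9 had 58, 60 and 62 in siADAMTS12 libraries, against 33, 32 and 31 in siCTL libraries (log2 fold change 0.89, limma adjusted p = 0.00438). PCDHGA10 had 28, 30 and 40 in siADAMTS12 libraries, against 13, 9 and 15 in siCTL libraries, the highest log2 fold change of all members at 1.35 (limma adjusted p = 0.00578). The C-type gene PCDHGC5, last in the cluster, had 45, 46 and 41 in siADAMTS12 libraries, against 30, 18 and 18 in siCTL libraries (log2 fold change 1.01 ± 0.26, limma adjusted p = 0.0131). These genes too had groups that did not overlap.

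PCDHGA8, which opens this side, had 62, 57 and 75 in siADAMTS12 libraries, against 45, 42 and 33 in siCTL libraries (log2 fold change 0.68 ± 0.20, limma adjusted p = 0.0278). Its call was lost without siADAMTS12 replicate 1 (limma adjusted p = 0.0567) or 3 (0.12) and without siCTL replicate 2 (0.0519) or 3 (0.0954). PCDHGB7, PCDHGA12 and PCDHGC4 did not pass, at group means of 15.3 to 22.7 normalized counts in siADAMTS12 and 8.67 to 12 in siCTL cells. PCDHGA12 had 23, 15 and 23 in siADAMTS12 libraries, against 11, 11 and 9 in siCTL libraries (log2 fold change 0.89, limma adjusted p = 0.0568), and 0.0359 without siADAMTS12 replicate 2. The other two had log2 fold changes of 0.82 and 0.73 (limma adjusted p = 0.106 and 0.187).

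On the 5′ side, PCDHGA1, the first gene of the cluster, was the exception, with 116, 142 and 113 normalized counts in siADAMTS12 libraries, against 71, 76 and 99 in siCTL libraries (log2 fold change 0.59 ± 0.17, limma adjusted p = 0.0232). Its call was lost without siADAMTS12 replicate 2 (limma adjusted p = 0.0755) and without siCTL replicate 1 (0.0801) or 2 (0.0715), which leaves 0 rises on this side. PCDHGB4, the last gene before the boundary, had 531, 509 and 523 in siADAMTS12 libraries, against 477, 557 and 474 in siCTL libraries. These values overlapped (521 ± 11.1 against 503 ± 47.1, SD, n = 3 each; log2 fold change 0.06 ± 0.09, limma adjusted p = 0.693). PCDHGA6, PCDHGB2, PCDHGB3, PCDHGA4, PCDHGA5 and PCDHGB1 had log2 fold changes of -0.29 to -0.01, and PCDHGA2 and PCDHGA7 of 0.26 and 0.23, none of which passed. PCDHGA3 lay below the threshold, with 3, 7 and 6 in siADAMTS12 and 2, 0 and 7 in siCTL libraries.

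Only 35.6 to 72.4% of the exon bases of the tested gamma genes belong to one gene alone, against 90.6 to 100% for the tested beta genes and 91.0 to 100% for the cadherins. How reads in the common gamma exons were assigned is not given in the sources used here, and clustered genes are also close paralogs, so the split of counts between neighbours is uncertain. Of the pseudogenes in the clusters whose symbols end in P, which the rule leaves out, PCDHB17P had 84, 125 and 98 in siADAMTS12 libraries, against 66, 81 and 54 in siCTL libraries. PCDHB17P rose (limma adjusted p = 0.0447). PCDHGB8P, in the gamma cluster, had 19, 34 and 29 in siADAMTS12 libraries, against 26, 16 and 21 in siCTL libraries, and was not called (limma adjusted p = 0.424). PCDHB18P had 10, 14 and 18 in siADAMTS12 libraries, against 8, 9 and 7 in siCTL libraries, and was not called (limma adjusted p = 0.171). PCDHGB9P, at 11, 11 and 12 in siADAMTS12 and 7, 8 and 1 in siCTL libraries, and PCDHB19P lay below the threshold and were not tested.

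Few counts were assigned to the alpha cluster. Its 16 genes summed to 50, 59 and 54 normalized counts in siADAMTS12 libraries, against 23, 29 and 17 in siCTL libraries (54.3 ± 4.51 against 23 ± 6, SD, n = 3 each). The sums did not overlap. Only PCDHA1 passed the threshold on level, with 12, 15 and 13 in siADAMTS12 libraries and 7, 13 and 6 in siCTL libraries, and its log2 fold change of 0.63 ± 0.38 did not pass the test (limma adjusted p = 0.247). PCDHA4 had 5, 7 and 5 in siADAMTS12 libraries and was listed at 0 in all 3 siCTL libraries. PCDHA11 had 10, 7 and 8 in siADAMTS12 libraries, against 1, 5 and 6 in siCTL libraries. PCDHA8 and PCDHA14 were listed at 0 in all 6, and 14 of 15 alpha genes with an annotated 3′ UTR share one of 2407 bases. PCDHA14 has 0 exon bases annotated to it alone, and the other alpha genes have 43.4 to 78.7% of theirs. How reads in shared alpha exons were assigned is not given, so low counts and zeros here may understate expression.

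Lists of genes that work with the family were counted in the same fit. Of 18 catenins and adherens junction adaptors, 14 were tested, 1 rose, 3 fell and 10 did not pass, with a median log2 fold change of -0.12. The share of all tested genes called was 27.0%, 11.5% as higher and 15.5% as lower, which is the background for each list here. ARVCF, a p120-related catenin, had 676 ± 45.7 in siADAMTS12 libraries and 408 ± 59.6 in siCTL libraries (log2 fold change 0.73, limma adjusted p = 0.000504). NECTIN1, an adhesion receptor of adherens junctions, had 933 ± 41.1 in siADAMTS12 libraries and 1487 ± 25.5 in siCTL libraries (log2 fold change -0.67, limma adjusted p = 2.1e-05). CTNNA1, alpha-catenin, and NECTIN2 fell slightly (limma adjusted p = 0.0201 and 0.0289), while beta-catenin (CTNNB1) and p120 (CTNND1) did not pass. The calls on CTNNA1 and NECTIN2 were lost without siADAMTS12 replicate 1, which leaves 1 fall, as they were without siADAMTS12 replicate 3. Omitting siCTL replicate 1 or 3 ended the call on CTNNA1 alone, and siCTL replicate 2 that on NECTIN2 alone. Without siADAMTS12 replicate 2 there were 5 falls, and with the replicate block there were 7.

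Of 25 other genes of the cadherin superfamily, 15 were tested, 3 rose and 5 fell, with a median of -0.17. CELSR2, a seven-pass cadherin of planar polarity, had 2274 ± 73.6 in siADAMTS12 libraries and 1730 ± 59.5 in siCTL libraries (log2 fold change 0.39, limma adjusted p = 0.000613), and the calsyntenin CLSTN3 also rose (log2 fold change 0.41, limma adjusted p = 0.00596). DCHS1 and FAT4, which bind each other as a ligand and receptor pair, had log2 fold changes of -0.81 and -0.55 (limma adjusted p = 0.00462 and 0.00975). The count of falls was 3 without siCTL replicate 1 and 2 without siCTL replicate 2 or 3 or siADAMTS12 replicate 1 or 3. DCHS1 and FAT4 stayed past the threshold in each of these.

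All 15 genes of cadherin cleavage and turnover were tested, 0 rose and 5 fell, with a median of -0.12. ADAM10, the main sheddase of N-cadherin, had 5598 ± 300 in siADAMTS12 libraries and 7434 ± 145 in siCTL libraries (log2 fold change -0.41, limma adjusted p = 0.000411). ADAM17, a related sheddase, had 1426 ± 19.5 in siADAMTS12 libraries and 2226 ± 73.5 in siCTL libraries (log2 fold change -0.64, limma adjusted p = 1.47e-05). The membrane protease MMP14 (log2 fold change -0.53, limma adjusted p = 7.98e-05) and the endocytic adaptor NUMB (log2 fold change -0.31, limma adjusted p = 0.0101) fell as well. Of 14 transcription factors of the cadherin switch, 10 were tested, 1 rose and 2 fell. ZEB1, a repressor of CDH1, had a log2 fold change of -0.42 (limma adjusted p = 0.0052), SNAI1 of -0.44 (0.0274) and TWIST2 of 0.55 (0.0421). SNAI1 was lost on leaving out any 1 library (limma adjusted p 0.0505 to 0.0766), which leaves 1 fall, and TWIST2 was lost without siCTL replicate 1 (0.142) or 3 (0.071) or siADAMTS12 replicate 1 (0.121) or 3 (0.143), which leaves 0 rises. Without siADAMTS12 replicate 2 there were 2 rises.

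Of 13 genes linked to promoter choice or silencing in the protocadherin clusters, all were tested, 1 rose, 3 fell and 9 did not pass, with a median of -0.07. The share of this list that was called is close to the 27.0% of all genes tested, so the list as a whole does not stand out. RAD21, a cohesin subunit, had 4803, 4922 and 4311 normalized counts in siADAMTS12 libraries, against 7191, 6639 and 6781 in siCTL libraries (log2 fold change -0.56 ± 0.07, limma adjusted p = 0.000101). DNMT3A, a de novo DNA methyltransferase, had 846, 914 and 770 in siADAMTS12 libraries, against 521, 540 and 473 in siCTL libraries (log2 fold change 0.72 ± 0.09, limma adjusted p = 0.000126). DNMT3B, which methylates clustered promoters in mouse embryos, had 524, 632 and 532 in siADAMTS12 libraries, against 743, 768 and 734 in siCTL libraries (log2 fold change -0.42 ± 0.09, limma adjusted p = 0.00485). The 3 genes had groups that did not overlap and kept their calls under each of the 13 alternatives. The cohesin subunit SMC1A fell slightly (log2 fold change -0.25, limma adjusted p = 0.0335), a call lost without siADAMTS12 replicate 1 (0.106) or 3 (0.131) or siCTL replicate 2 (0.0724) or 3 (0.12). CTCF, which binds these promoters, had a log2 fold change of 0.01 and did not pass. Of 13 partners that carry protocadherin signals, such as focal adhesion kinases and subunits of the WAVE complex, all were tested and 12 did not pass. BRK1, the smallest WAVE subunit, fell (log2 fold change -0.25, limma adjusted p = 0.0223), a call lost without siADAMTS12 replicate 2 (0.0646) or siCTL replicate 1 (0.0776) or 2 (0.0557).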

How the data were processed

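RNA from LX-2 cells was sequenced in 3 siADAMTS12 and 3 siCTL libraries. Per the labels' protocols, 500 ng of total RNA with integrity numbers of 9.2 to 9.9 went into each strand-specific mRNA library. STAR, HTSeq, DESeq2 and the build GRCh38 appear, without versions, in the submitters' processing notes. The annotation, counting mode and strand option were not given in the sources used here. As deposited, the unit of the values is a score: the authors' normalized counts, per the name of the table, rounded to whole numbers, so no count model was fitted and no counting interval is given. Precision therefore rests on the spread between 3 libraries a group.

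Genes with a mean of at least 10 were kept (15637 of 60669) and analysed as log2(value + 1), which understates changes of low genes. limma 3.58.1 (R 4.3.3; lmFit, eBayes with trend) was fitted over all kept genes with group as the only term, and 2-sided p-values were adjusted by Benjamini-Hochberg over all of them, with a threshold of 0.05. The fit was also run on simulated counts with few changed genes and no effect of replicate number. These settings differ from the data, so that run gives no error rate for the calls reported here. Lists were described by counts and medians, beside all genes. The members and lists were chosen with earlier results of these data known. Named genes are ADAMTS12, every tested member that passed, the others by class, and up to 4 called genes of each pathway list with the smallest adjusted p.

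Libraries with one replicate number deviated in common from the means of their groups (r of 0.367, 0.135 and 0.133, against -0.193 to 0.0632 for different numbers), so a second fit took that number as a block. The pairing comes from the replicate numbers of the labels and this check. Other alternatives were quantile normalization, rescaling to one sum, pseudocounts of 0.5 and 8, no minimum mean, a minimum of 50, and leaving out each library. Positions, exon sharing and 3′ UTRs come from GENCODE 29 (GRCh38), promoters from RefSeq (GRCh38.p14). Python 3.11.15, numpy 2.4.6, pandas 2.3.3, scipy 1.17.1 and matplotlib 3.10.9 were used.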

Additional observations from a re-analysis of the deposited data

How the results depend on the processing

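Of the 23 called members, 13 passed in each of the 13 alternatives they were tested in, 10 were lost in at least 1 and 0 changed sign. Of the uncalled members, 10 passed in at least 1 alternative and 5 changed sign. Of the called genes of the pathway lists, which were run through the same alternatives, CTNNA1 changed sign, with a log2 fold change of 0.006 under quantile normalization. The cause of these changes was not tested.

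Rescaling to one sum gave 3868 rises and 1546 falls over all genes, so that rises were 71.4% of calls, against 42.6% as reported. It gave 4 falls among members, 2 among cadherins, 1 rise among protocadherins outside the clusters, 10 in the beta cluster and 2 from PCDHGA1 to PCDHGB4. In the lists it gave 3 rises and 1 fall of catenins, 2 falls of other superfamily genes, 2 rises and 3 falls of cleavage genes, 2 rises and 1 fall of switch factors, 2 rises of promoter choice genes, and 5 rises and 0 falls of partners. Quantile normalization gave 3 falls of cadherins, 2 rises and 1 fall of catenins, 3 falls of other superfamily genes, 2 rises of switch factors, 2 rises of promoter choice genes, and 1 rise and 0 falls of partners. No minimum mean gave 2 falls of other superfamily genes and 0 rises and 1 fall of switch factors. A minimum of 50 gave 5 rises from PCDHGA8 to PCDHGC5 and 2 falls of partners, as fewer genes are tested. With the replicate block there were 2 rises of protocadherins outside the clusters, 2 rises and 7 falls of catenins, 1 rise of cleavage genes, 2 rises of switch factors, 2 rises of promoter choice genes and 3 falls of partners. The alpha sum over members with a mean of at least 10 was 13.3 in siADAMTS12 and 8.67 in siCTL cells. The block changed the call of no member beyond those named in the report.

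Leaving out 1 library gave 0 to 1 rises of protocadherins outside the clusters, 2 to 6 in the beta cluster and 0 to 1 from PCDHGA1 to PCDHGB4. It gave 1 to 5 falls of catenins, 2 to 4 of other superfamily genes, 0 to 2 rises and 1 fall of switch factors, and 0 to 1 falls of partners. The depth behind the normalized values is not used here, so precision is set by the 3 libraries of each group.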
